A study of Rattus norvegicus with 8 samples.

Results

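Maternal-effect genes are transcribed in the growing oocyte, and their products carry the embryo through its first divisions before its own genome is switched on. A set of 10 such genes, Nlrp5, Padi6, Ooep, Tle6, Dppa3, Zar1, Npm2, H1foo, Mos and Btg4, were looked up by gene name among the non-control probes of a rat expression array. Of these 10 genes, 8 had a probe, against 26204 gene names on the array, and Ooep and Tle6 were not analysed here. The 8 genes were read by 10 probes, since Dppa3 and Btg4 had 2 probes each. A level below is the log2 signal of a probe minus the 75th percentile of log2 signal on the same array, so that a level of 0 is a signal at that percentile.

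Ovary RNA from female rats was hybridised to 8 1-colour arrays. Of these, 4 are titled as a reference without treatment and are labelled control here. The other 4 are titled as treated with pregnant mare serum gonadotropin (PMSG), which acts mainly like follicle-stimulating hormone. Rats aged 26 days received a subcutaneous dose of 50 IU PMSG, or only the albumin phosphate buffer that carried it (0.2 ml), and ovaries were taken 48 h later, at an age of 28 days. The sources used here give no strain, and nothing in them says whether replicates came from separate animals, so the p-values measure only the spread between these samples.

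Oocytes make only a small share of an ovary's cells, and the 8 genes fall into several machineries of the egg. Nlrp5 and Padi6 encode parts of the subcortical maternal complex and the cytoplasmic lattices, structures under the egg's surface that store proteins for the embryo. Dppa3 protects the maternal genome from loss of DNA methylation, Npm2 is a nucleoplasmin that handles histones, and H1foo is the oocyte's linker histone. Zar1 binds and stores maternal mRNA, Mos is the kinase that holds the egg in meiotic arrest through the MAP kinase cascade, and Btg4 recruits the CCR4-NOT deadenylase that clears maternal mRNA.

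The probes are 60 bases long and are described here on the rat build rn4 named in the file headers. Those of Nlrp5, Padi6, Npm2 and Mos are shown as examples of what was hybridised, with the letters of the sense strand from 5′ to 3′. In the Padi6 probe the capitals mark a final TAA triplet.
Nlrp5: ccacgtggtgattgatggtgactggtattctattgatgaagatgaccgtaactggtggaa
Padi6: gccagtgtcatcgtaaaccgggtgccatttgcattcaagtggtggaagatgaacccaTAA
Npm2: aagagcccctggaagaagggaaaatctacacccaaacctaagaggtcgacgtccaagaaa
Mos: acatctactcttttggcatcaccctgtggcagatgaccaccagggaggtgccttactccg
The Nlrp5 probe lies on chromosome 1 from 66212864 to 66212923 (minus strand, position 2864 of its transcript), the Padi6 probe on chromosome 5 from 159561456 to 159561515 (minus strand, position 1992) and the Mos probe on chromosome 5 from 17159215 to 17159274 (minus strand, position 930). The 60 bases of the Npm2 probe spread over 141 bases of chromosome 15, from 51049552 to 51049692 (minus strand). None of the 10 probes shared a run of 20 bases with any other probe of the array.

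Zar1 and Btg4 are shown by 30 bases of a probe, for Btg4 the brighter one, because these hold a signal of mRNA tail formation, given in capitals.
Zar1: ataaagcctgcgAATAAAaggggttgcaaa
Btg4: acttttagctacTTTTAATtctcattttac
The Zar1 stretch covers probe bases 11 to 40 and holds AATAAA, the polyadenylation hexamer, which 8.39% of all 30367 probes hold on the sense strand. The Btg4 stretch covers bases 20 to 49 and holds TTTTAAT, a variant of the cytoplasmic polyadenylation element through which oocytes switch stored mRNA on, which 0.731% of all probes hold. The more usual form TTTTAT was in 3.01% of all probes and in 0 of the 10 probes of these genes. The Zar1 probe lies on chromosome 14 from 37598421 to 37598480 (minus strand), the Btg4 probe on chromosome 8 from 54437945 to 54438004 (plus strand) and the H1foo probe on chromosome 4 from 152075558 to 152075617 (plus strand).

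The 75th percentile of the signal ran from 769 to 1103 over the 8 arrays, lowest in PMSG array 3, and 80.8% to 84.6% of probes were well above background. No array correlated better with the other label than with its own. Of 25303 probes tested with limma, 8658 (34.2%) differed between the labels at a Benjamini-Hochberg p under 0.05, and 51.4% of those were higher in arrays labelled PMSG, or 34.5% when arrays were centred on their median. The labels gave a median log2 difference over all tested probes of 0.11, against 0.03 under quantile normalization and -0.05 under median centring. The ovary was well marked on these arrays, with Foxl2, a granulosa cell regulator, at a level of 2.02 ± 0.23 (SD, n = 4) under the control label and of 2.21 ± 0.21 (SD, n = 4) under the PMSG label. Lhcgr, Cyp11a1 and Star, genes that gonadotropins are generally known to raise, were lower in arrays labelled PMSG, with log2 differences of -1.93, -3.36 and -2.75 (limma adjusted p = 0.00114, 2.32e-04 and 0.00541). Among other hormone-related genes, Amh and Insl3 were higher, by 3.03 and 2.60 (limma adjusted p = 2.61e-04 and 3.47e-04). Cyp17a1 (-0.22), Hsd3b1 (0.07) and Fshr (0.34) did not pass. Whether the labels of the 2 groups were exchanged was not tested. Directions below are those of the labels, and an exchange would turn every one of them.

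All 8 maternal-effect genes were higher in arrays labelled PMSG, by 3.29-fold for Mos to 4.93-fold for Npm2. In each of them the lowest array labelled PMSG lay above the highest array labelled control, by 0.86 to 1.37 on the log2 scale, where 17.9% of tested probes lay higher without overlap. Each of the 8 passed the threshold (limma adjusted p from 3.81e-04 for Npm2 to 0.00161 for Btg4), where 17.6% of all tested probes were called higher, and all 8 were at least 2-fold higher, where 7.20% of tested probes were. The median log2 difference of the 8 was 1.91. In bulk ovary RNA, more oocyte RNA per sample, fewer other cells and more RNA per oocyte cannot be told apart.

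**Figure D1:**
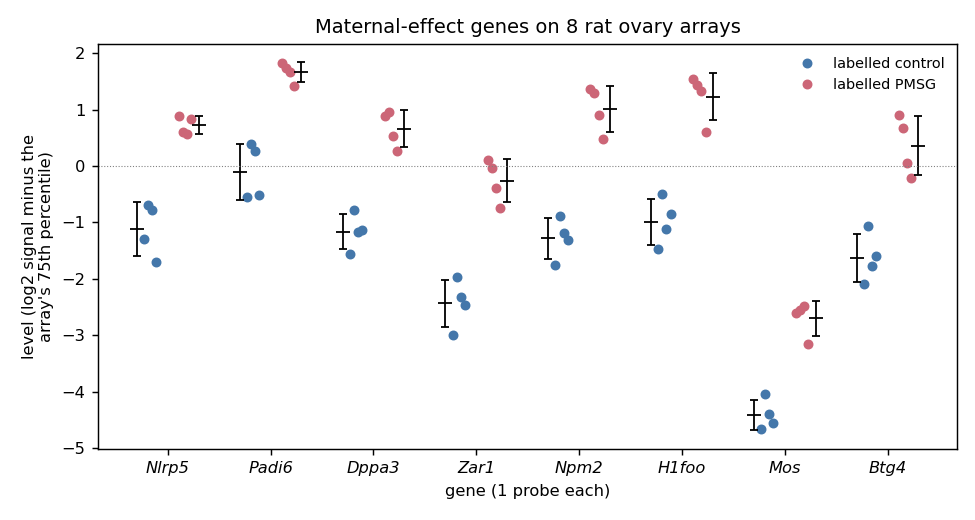
Level (log2 signal minus the array's 75th percentile) of the 8 maternal-effect genes, 1 probe each; every point is an array, with the mean and SD of each label as a black bar. For all 8 genes the 4 arrays labelled PMSG sit above the 4 labelled control, with a gap of 0.86 (Btg4) to 1.37 (Npm2) between the nearest arrays.

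Of the subcortical maternal complex, Nlrp5 had levels of -1.29, -0.69, -0.78 and -1.70 in control arrays 1 to 4 and of 0.89, 0.60, 0.58 and 0.83 in PMSG arrays 1 to 4. The spread was wide among control arrays and narrow among PMSG arrays, and the groups did not overlap. The log2 difference was 1.84 with a standard error of 0.23 (limma adjusted p = 6.72e-04). Padi6, whose enzyme family converts arginine to citrulline, stood at -0.55, 0.39, 0.27 and -0.51 in the control arrays and at 1.83, 1.74, 1.67 and 1.41 in the PMSG arrays. Control arrays 2 and 3 were the high ones here, still below every PMSG array. Its log2 difference was 1.76 with a standard error of 0.24 (limma adjusted p = 0.00102).

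Of the genes that act on chromatin, Npm2 changed most, from levels of -1.76, -0.88, -1.18 and -1.31 in the control arrays to 1.37, 1.30, 0.91 and 0.49 in the PMSG arrays. The log2 difference was 2.30 with a standard error of 0.24 (limma adjusted p = 3.81e-04), ranked 107 from the top of 25303 tested probes. H1foo stood at -1.47, -0.50, -1.11 and -0.85 in the control arrays and at 1.55, 1.44, 1.34 and 0.61 in the PMSG arrays. PMSG array 4 was the low array in both of these genes, still above all control arrays. The log2 difference of H1foo was 2.22 with a standard error of 0.26 (limma adjusted p = 5.79e-04).

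Dppa3 was read by 2 probes, and the whole probe at transcript position 202 and the first 30 bases of that at position 451 are shown, since their changes differed in size.
Dppa3, position 202: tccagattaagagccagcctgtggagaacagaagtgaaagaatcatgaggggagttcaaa
Dppa3, position 451: aaatcgggcagaaccagaagaattagggca
They lie on chromosome 4, from 159085551 to 159085610 and from 159086488 to 159086547 (plus strand). The probe at position 451, the brighter, had levels of -1.56, -0.78, -1.17 and -1.13 in the control arrays and of 0.89, 0.96, 0.54 and 0.27 in the PMSG arrays, a log2 difference of 1.83 with a standard error of 0.21 (limma adjusted p = 4.95e-04). The probe at position 202 rose by 1.27 with a standard error of 0.24 (limma adjusted p = 0.00435), from -4.16, -3.54, -3.94 and -3.72 to -2.33, -2.15, -2.64 and -3.17. The probe at position 202 gave weak signals, 58.2 to 90.8 units in control arrays and 119.9 to 231 in PMSG arrays. Both probes separated the groups, and the change of the brighter was larger by 0.56 on the log2 scale (exact two-sided permutation p = 0.0286, the smallest that 4 arrays against 4 can give; the comparison was chosen after the values were seen).

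Of the genes that act on mRNA, Zar1 had levels of -2.99, -1.97, -2.33 and -2.46 in the control arrays and of 0.11, -0.03, -0.40 and -0.73 in the PMSG arrays. The groups lay 1.23 apart at their nearest arrays, and the log2 difference was 2.18 with a standard error of 0.26 (limma adjusted p = 5.50e-04). Btg4 stood at -2.09, -1.06, -1.78 and -1.59 in the control arrays and at 0.91, 0.68, 0.06 and -0.20 in the PMSG arrays, with a log2 difference of 1.99 and a standard error of 0.30 (limma adjusted p = 0.00161). This was the widest spread among PMSG arrays of the 8 genes (SD 0.52), with arrays 1 and 2 high and arrays 3 and 4 low. The other Btg4 probe (chromosome 8, 54437684 to 54437743) rose by 1.79 with a standard error of 0.28 (limma adjusted p = 0.00187), and its change differed from that of the first by 0.20 (exact two-sided permutation p = 0.171).

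Mos, the meiotic kinase, had levels of -4.66, -4.04, -4.39 and -4.57 in the control arrays and of -2.61, -2.56, -2.47 and -3.16 in the PMSG arrays. The groups did not overlap, and PMSG array 4 was again the low one. Its log2 difference was 1.72 with a standard error of 0.19 (limma adjusted p = 4.68e-04). The Mos probe gave weak signals, 41.2 to 64.0 units in control arrays and 121 to 174 in PMSG arrays. Its size depended on the background correction, with a log2 difference of 1.02 after normexp correction, still past the threshold (limma adjusted p = 2.26e-04, with 1.85e-04 to 0.00434 over its 19 alternatives).

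The 8 genes moved together from array to array within each label as well. Control array 2 was the highest of its group for all 8 genes, and control array 1 the lowest for 7, with Nlrp5 lowest in array 4. In the PMSG group array 1 was highest for 6 genes, and array 4 was lowest for 7, with Nlrp5 lowest in array 3. Averaged over the 8 genes, the arrays deviated from their group's mean by -0.41, 0.45, 0.08 and -0.12 in the control group and by 0.28, 0.18, -0.06 and -0.40 in the PMSG group. The mean level of 6 other oocyte genes, Zp1, Zp2 and Zp3 of the zona pellucida, the growth factors Gdf9 and Bmp15 and the transcription factor Figla, was -1.94, -1.21, -1.49 and -1.70 in control arrays and 0.68, 0.43, 0.25 and -0.27 in PMSG arrays. The order of the arrays within each label was thus the same for these markers as for the 8 genes.

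**Figure D2:**
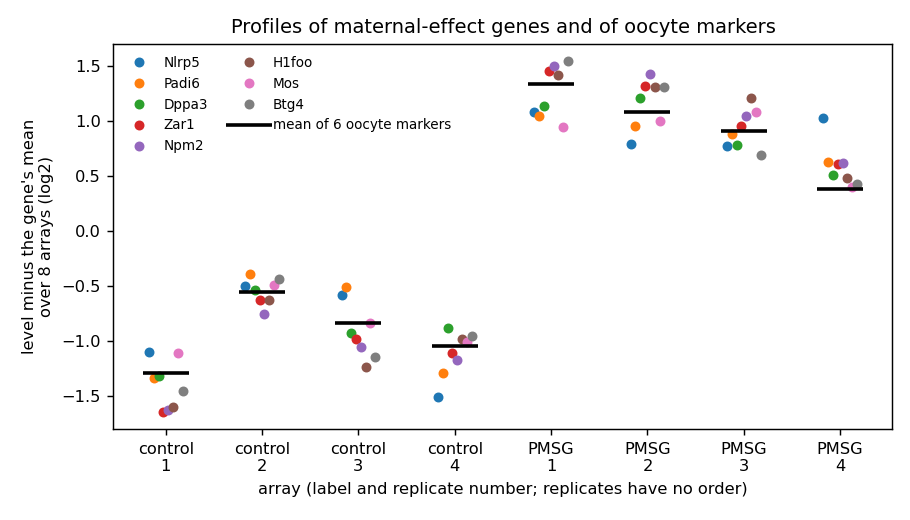
Level of each maternal-effect gene (coloured points) minus its own mean over the 8 arrays, in log2, by array, with the mean of 6 oocyte markers treated in the same way as a black bar. Points and bars are lowest in control 1 for 7 of 8 genes, highest among controls in control 2, and lowest among PMSG arrays in PMSG 4 for 7 of 8 genes, the exception being Nlrp5.

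Each of the 8 genes was then set against those 6 markers on the same arrays. The markers' mean rose by 1.86, and all 6 passed the threshold. When the marker mean was subtracted from each gene, array by array, the difference between labels shrank to between -0.14 (Mos) and 0.44 (Npm2). The spread among control arrays became smaller for all 8 genes by this subtraction, and the spread among PMSG arrays for 6 of 8, Nlrp5 and Padi6 being the exceptions. Npm2, for example, then lay between 0.19 and 0.40 in the control arrays and between 0.66 and 0.87 in the PMSG arrays.

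No gene passed the threshold against the markers after adjustment over the 8 genes. Npm2 (0.44), H1foo (0.36) and Zar1 (0.32) were higher relative to the markers in arrays labelled PMSG without overlap, each at the smallest p the design allows (exact two-sided permutation p = 0.0286, Benjamini-Hochberg 0.0762), so 3 of 8 had an unadjusted p under 0.05. The differences of Btg4 (0.13), Nlrp5 (-0.02), Dppa3 (-0.03), Padi6 (-0.10) and Mos (-0.14) had exact permutation p-values from 0.314 to 0.971. Over 8 genes, at least 5 must reach that smallest p before any can pass after adjustment, so the adjusted values say little about these 3. The size of the difference depended on the markers. Of the 6 markers Bmp15 had the dimmest probe, at -5.17 under the control label and -4.03 under the PMSG label. Bmp15 rose by 1.14, where the other markers rose by 1.89 (Zp1) to 2.17 (Zp2). Any marker mean that holds Bmp15 therefore rose less, which makes the differences relative to it larger. Differences against the markers without Bmp15 alone were not computed. Against the zona genes alone, the differences of H1foo and Zar1 were 0.22 and 0.17 (exact permutation p = 0.143 and 0.171), and that of Npm2 was 0.30 (exact permutation p = 0.0286, Benjamini-Hochberg 0.229). Against Gdf9, Bmp15 and Figla alone they were 0.50 for H1foo and 0.46 for Zar1 (exact permutation p = 0.0571 and 0.0286), and 0.58 for Npm2 (exact permutation p = 0.0286, Benjamini-Hochberg 0.114 for Npm2 and Zar1).

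**Figure D3:**
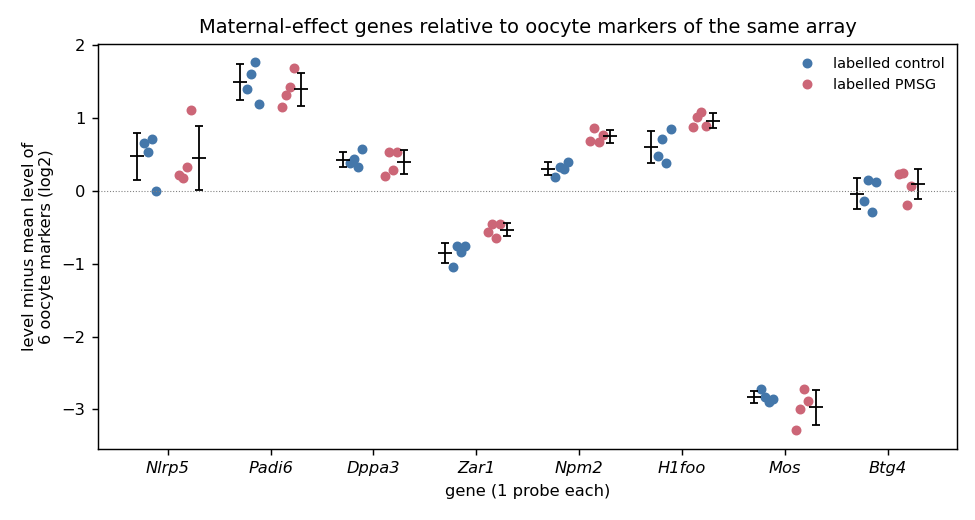
Level of each maternal-effect gene minus the mean level of 6 oocyte markers on the same array (log2); points are arrays, black bars the mean and SD of each label. The labels overlap for Nlrp5, Padi6, Dppa3, Mos and Btg4, and are apart for Npm2, Zar1 and H1foo, where the means differ by 0.44, 0.32 and 0.36.

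Other genes known mainly from the oocyte ran the same way. Of 21 such genes listed, 14 had a probe and 13 were tested, of which 10 were higher in arrays labelled PMSG, 0 were lower and 3 did not pass, where 17.6% of all tested probes were called higher and 16.6% lower, and their median difference was 1.43, whether Nlrp4 was taken at its fitted value or at its bound. Tcl1a, a cofactor of the AKT kinase, was higher by 1.99 with a standard error of 0.22 (limma adjusted p = 4.69e-04), and Zar1l, the relative of Zar1, by 1.98 with a standard error of 0.24 (limma adjusted p = 6.10e-04). Nlrp4, of the same NLR family as Nlrp5, was well above background on 4 of 4 arrays labelled PMSG and 0 of 4 labelled control, and was at least 1.69-fold higher. It entered the test only through the arrays labelled PMSG, where it was high, so its call, counted in the 10 above, adds no support. A bound sets the mean of the brighter label against the dimmest spot called above background, or the probe's own signal where higher, on each array of the other. Khdc3, a partner of Nlrp5 in the subcortical maternal complex, was higher by 1.43 and Bcl2l10, an oocyte survival factor, by 1.61 (limma adjusted p = 8.50e-04 and 6.67e-04), both named after their values were seen.

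Relatives of the 8 genes from the same families were called about as often as all tested probes (34.2%). Of 20 relatives listed 17 were tested, with 4 higher, 3 lower and 10 not past the threshold, and a median log2 difference of 0.0034. In the arginine deiminase family, Padi3 was lower in arrays labelled PMSG, at -3.44 ± 0.25 (SD, n = 4) against -1.24 ± 0.17 (log2 difference -2.19, SE 0.15, limma adjusted p = 7.51e-05), and Padi2 was lower by 1.24 (limma adjusted p = 0.0153). Padi4 rose by 1.23 (limma adjusted p = 5.92e-04) and Padi1 had a difference of -0.02, both named after their values were seen, to complete the family. Btg3, a growth-restraining relative of Btg4, was lower by 1.40 with a standard error of 0.13 (limma adjusted p = 2.53e-04). The abundant nucleophosmin Npm1 had a difference of -0.08 and the somatic linker histone H1f0 of 0.16, neither past the threshold and both named after their values were seen.

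Among genes listed for the pathway of Mos and the meiotic cell cycle, the called genes were lower. Of 20 genes listed for the MAP kinase cascade and the meiotic cell cycle 17 were tested, and 0 were higher, 9 lower and 8 not past it, where 16.6% of all tested probes were called lower, with a median difference of -0.41. Map2k1, the MAP kinase kinase that Mos activates, was lower by 0.97 with a standard error of 0.12 (limma adjusted p = 7.44e-04), and the kinase Rps6ka1 by 0.66 (limma adjusted p = 0.00231). Both are also expressed widely outside the oocyte. The genes called lower also include Ccnb1, Ccnb2, Cdk1 and Aurka of the general cell cycle, named after their values were seen. The part of oocytes in these differences was not tested. Of 19 genes of the CCR4-NOT complex and mRNA deadenylation 2 were higher, 3 lower and 14 not past the threshold, where 34.2% of all tested probes were called, with a median of 0.01. Cpeb1, which binds the cytoplasmic polyadenylation element in oocyte mRNA, was higher by 1.80 with a standard error of 0.22 (limma adjusted p = 6.67e-04). Parn, a deadenylase, was lower by 0.73 (limma adjusted p = 0.00542), and Ybx2, an mRNA-masking protein of germ cells, differed by 0.80 without passing (limma adjusted p = 0.255) and was above background on 1 control and 3 PMSG arrays.

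Maternal-effect genes that somatic cells also use were called about as often as all tested probes (34.2%). Of 20 listed 19 were tested, with 3 higher, 4 lower and 12 not past the threshold, and a median log2 difference of 0.14. Bnc1, a zinc finger protein of oocytes and epithelia, was higher by 0.96 (limma adjusted p = 0.00248), and Kdm1b, the histone demethylase needed to set maternal imprints, by 0.92 (limma adjusted p = 8.85e-04). Dnmt1, the maintenance DNA methyltransferase, differed by 1.01 without passing (limma adjusted p = 0.145), and its brightest probe was above background on 1 control and 3 PMSG arrays only. Median centring lowers every difference by 0.17, which turns the medians of this list, of the family relatives and of the CCR4-NOT list to -0.03, -0.16 and -0.15.

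**Figure D4:**
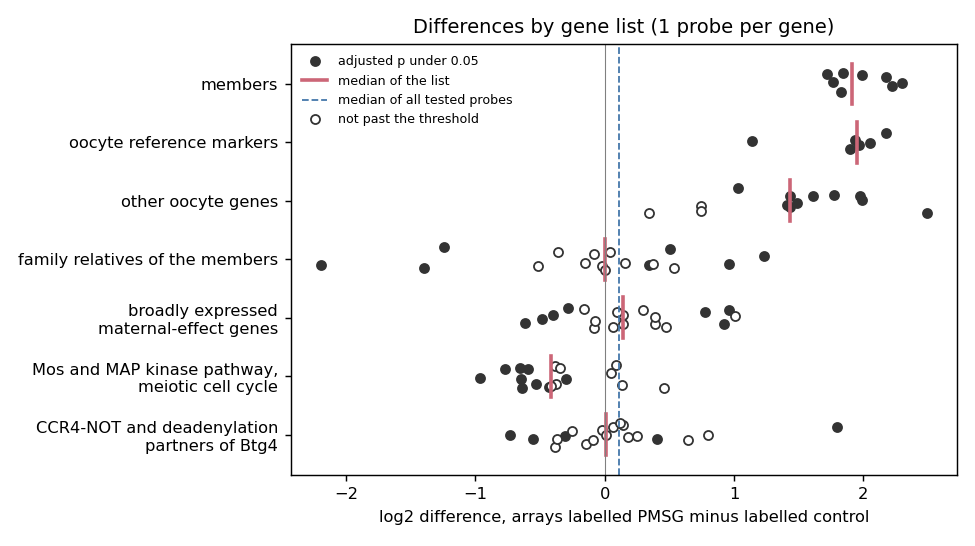
Log2 difference (arrays labelled PMSG minus labelled control) of every tested gene, by list; filled points passed an adjusted p under 0.05, red bars are list medians and the dashed line is the median of all tested probes (0.11). The 8 maternal-effect genes (median 1.91), the 6 oocyte markers and most other oocyte genes lie to the right, while family relatives, broadly expressed maternal-effect genes and the pathways of Mos and Btg4 have medians between -0.41 and 0.14.

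The genes most like the 8 over the 8 arrays were sought among 13805 other named genes. Likeness was the root-mean-square difference between a gene's level and the mean level of the 8, each centred on its own mean, which mainly reflects the difference between the labels. Of several probes of a gene the closest was kept, which favours genes with more probes. For Zar1l this was another probe than the one reported above. The nearest were Gdf9 (0.0836), the tubulin Tuba3a (0.105), Zar1l (0.110), Oas1e (0.114), Zp3 (0.136), the zinc finger gene Zfp296 (0.138), Tcl1a (0.155) and Gtf2a1l (0.158), a germ cell form of a general transcription factor subunit. Of the other markers Zp1 ranked 19, Zp2 38, Figla 52 and Bmp15 327, and Bmp15 rose less than the rest, by 1.14. The Bmp15 probe was dim, with mean levels of -5.17 under the control label and -4.03 under the PMSG label. Its smaller rise may thus depend on the background subtraction, which was not tested.

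Because the 8 genes moved together, the 120 bases before the annotated start of transcription are shown for the 6 of them with an entry in the RefSeq promoter table (build GRCr8), in the direction of the gene. Capitals mark the E-box CANNTG, the motif of helix-loop-helix factors such as Figla, read on both strands. H1foo is listed there as H1f8, and Mos and Npm2 had no entry.
Btg4, chr8:60318292-60318411 (plus strand): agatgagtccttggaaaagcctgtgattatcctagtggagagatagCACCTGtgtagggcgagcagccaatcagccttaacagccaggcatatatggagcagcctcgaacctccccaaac
Dppa3, chr4:157523306-157523425 (plus strand): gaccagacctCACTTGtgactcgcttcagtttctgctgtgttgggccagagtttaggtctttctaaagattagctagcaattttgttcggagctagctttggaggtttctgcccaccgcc
H1foo, chr4:150665607-150665726 (plus strand): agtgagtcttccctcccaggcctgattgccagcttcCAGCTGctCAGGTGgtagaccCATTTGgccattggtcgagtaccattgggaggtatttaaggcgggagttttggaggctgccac
Nlrp5, chr1:76872965-76873084 (minus strand): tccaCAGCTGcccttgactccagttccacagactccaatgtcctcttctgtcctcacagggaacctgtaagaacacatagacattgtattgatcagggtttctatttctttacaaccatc
Padi6, chr5:158320509-158320628 (minus strand): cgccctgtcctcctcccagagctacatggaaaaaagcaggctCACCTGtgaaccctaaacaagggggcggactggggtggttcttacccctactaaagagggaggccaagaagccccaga
Zar1, chr14:35551404-35551523 (minus strand): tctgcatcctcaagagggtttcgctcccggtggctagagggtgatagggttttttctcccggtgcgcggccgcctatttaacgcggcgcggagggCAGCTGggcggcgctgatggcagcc
All 6 windows of 120 bases held an E-box, as did 39.4% of 33469 promoters in the table, and in windows of 250 bases these shares were 6 of 6 and 65.5%. The window of 120 bases was chosen after the matches were seen. The E-box nearest the start was 25 bases before it in Zar1, 63 in H1foo, 74 in Btg4, 78 in Padi6, 110 in Dppa3 and 116 in Nlrp5. Within 250 bases, TAATTG and TAATTA, sites of homeobox factors, were in 0 of 6 (7.31% and 4.86% of all), TGATTG in 2 of 6 (12.3%), the TATA box TATAAA in 1 of 6 (12.9%) and CCAAT in 3 of 6 (34%). The TGATTG and CCAAT matches of Btg4 overlap. A match describes the letters and does not show binding.

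Markers of other cell types are given here by their calls, where 17.6% of all tested probes were called higher and 16.6% lower, and by their summed signal. Oviduct and surface epithelium markers were higher in 5 of 8 tested, and their summed signal, in multiples of each array's 75th percentile, ran from 18.3 to 24.6 in control arrays and from 31.1 to 47.6 in PMSG arrays. Leukocyte markers were higher in 4 of 7 (8.32 to 10.2 against 12.5 to 14.2), and fibroblast and smooth muscle markers in 4 of 8 (147 to 186 against 159 to 211). Endothelial markers were lower in 4 of 8 and higher in 1 (21.0 to 24.5 against 17.1 to 18.6), and markers of theca and steroid cells lower in 3 of 6 and higher in 1 (273 to 309 against 134 to 216). Of granulosa cell markers 3 of 8 were higher and 2 lower (100.6 to 164 against 98.3 to 123), of adipocyte markers 1 of 7 was higher (6.35 to 47.9 against 19.8 to 53.8), and of red blood cell markers 1 of 5 was lower (190.2 to 239 against 151 to 221). The summed signal of the 8 maternal-effect genes ran from 2.49 to 4.55 in control arrays and from 10.2 to 15.9 in PMSG arrays. None of the marker genes with a probe in these lists was below background on all 8 arrays, and the part of these cell types in the result was not tested.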

How the data were processed

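Total ovary RNA was labelled with Cy3 and hybridised to 8 Agilent arrays on 1 slide with 1 scan time, 4 per label. The deposited scanner files give an intensity per spot, extracted with Agilent Feature Extraction 11.5.1.1, per the file headers, with background subtracted and trends within the array removed, so that weak signals depend on that subtraction. The authors' deposited value table is on a log2 scale and was used as an alternative. Its scaling is not stated in the sources used here. Each column matched its own array best, with correlations of 0.998 to 0.9996. The 75th percentiles of its columns lay between 0.0067 and 0.0147, so this alternative is close to the main setting and is not an independent check. From the 58717 non-control spots, log2 processed signals were averaged per probe and the 75th percentile of each array was subtracted. Probes well above background in at least 0.5 of spots on at least 4 of 8 arrays were tested with limma 3.58.1 in R 4.3.3 (lmFit, eBayes, Benjamini-Hochberg over all 25303 probes, threshold 0.05). Of several probes of a gene the brightest was used, except in the search for likeness. Values of other probes are given only for the maternal-effect genes. With the mean of a gene's tested probes, 40 companion genes passed the threshold, against 38 with the brightest. Levels relative to the mean of 6 oocyte markers were compared by exact two-sided permutation over arrays (smallest p 0.0286). The limma comparison of the labels was also run on simulated data with 25303 probes. There, 50% of changes of 1 and 82% of changes of 2 on the log2 scale were recovered. Far fewer probes were changed in the simulation than were called in the data, so these shares need not hold for the data. The number of arrays limits the precision.

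The text names all the maternal-effect genes and their probes, the 3 tested genes with the largest difference in each companion list and the 8 nearest genes by likeness, except 1 companion gene that is not reported here; others are named as chosen after their values were seen. The members and lists were chosen with earlier results of these data known. Alternatives were normexp background correction, quantile normalization, median centring, no filter or a stricter one, the deposited values, array weights, a variance trend, blocks for replicate number and slide row, the mean of a gene's probes, other markers, and each array left out.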

Additional observations from a re-analysis of the deposited data

Results flagged for a closer look

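In 3 of 78 groups of 4 arrays examined (the maternal-effect genes, their levels relative to the markers, the markers and the named companion genes), 1 array lay far from the other 3, where chance gives about 1 in 20, or 3.9 groups. Relative to the 6 oocyte markers, Nlrp5 stood at 1.11 in PMSG array 4 and at 0.17 to 0.33 in the other PMSG arrays (gap over range 0.834, past Dixon's critical value). Figla had a level of -0.93 in PMSG array 3 and of -1.10 to -1.07 in the others (0.836). Dnmt1 had a level of -7.38 in PMSG array 4 and of -6.06 to -5.92 in the others (0.902), on a probe that was above background on 3 of these 4 arrays.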

How the results depend on the processing

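All 8 maternal-effect genes with a probe were higher in arrays labelled PMSG under each of 19 alternatives, and each gene kept its direction and its side of the threshold in 152 of 152 gene-by-alternative fits (limma adjusted p at most 0.00870, for Btg4). With each array left out in turn, the count of differing probes was 6552 when control array 4 was dropped and 11382 when PMSG array 4 was, the lowest and highest, and the count of companion genes was 29 and 45 with the same arrays dropped, against 8658 and 38. The count of genes past the threshold relative to the markers was 0 in 15 alternatives, which the few arrays nearly fix, since with all arrays at least 5 of 8 genes must reach the smallest exact p; the adjusted p ran from 0.0571 to 0.333 for Npm2 and from 0.0571 to 0.457 for H1foo and Zar1, and the relative difference of Mos reached -0.61 after normexp correction. Arrays with the same replicate number did not deviate together (correlations of 0.0444, 0.0361, 0.183 and -0.0192). Low correlations cannot exclude that samples of the same number were paired, and the labels do not say. With a replicate block 7346 probes, 8 maternal-effect genes and 33 companion genes passed, and 0 genes relative to the markers, where the exact sign-flip permutation test cannot go below p = 0.125. Mos, whose signal is weak, had a log2 difference from 1.02 to 1.87 over the alternatives.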
